A study of Rattus norvegicus with 6 samples.

Results

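Transcripts of 6 extracellular matrix genes were examined in cultured rat bone marrow-derived macrophages with and without the epoxygenase gene Cyp2j4. The 6 genes were Fn1, Col1a1, Col1a2, Col3a1, Sparc and Dcn, taken by their Ensembl IDs from the 29516 gene IDs of the count table. All libraries came from the Wistar-Kyoto (WKY) rat strain, 3 from wild-type animals and 3 from animals labelled as Cyp2j4 knockout, and cells of both genotypes were bone marrow precursors grown into macrophages in culture. The labels give an n of 3 per genotype and name no treatment, age or sex. They do not say how the knockout was made or tie each library to an animal, so the p-values below measure the spread between these libraries. The question, from the title given to the study, was whether a macrophage epoxygenase sets a fibrosis-linked expression pattern.

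The matrix that cells deposit around themselves is built from fibrillar collagens, long triple helices that give tissue its tensile strength, and from glycoproteins that link those fibrils to cells and growth factors. Fibroblasts and other mesenchymal cells are the main makers of fibrillar collagen. Macrophages are best known for steering those cells in fibrosis, but they also make fibronectin and some other matrix proteins themselves. Epoxygenases such as Cyp2j4 are cytochrome P450 enzymes that convert arachidonic acid into epoxyeicosatrienoic acids, lipid mediators.

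Wild-type libraries held 27248491 to 33916549 gene counts and knockout libraries 21590429 to 23923666. At these depths 3 counts, taken as the floor of detection, correspond to 0.0885 to 0.139 CPM. CPM here is a gene's count over the library's total of gene counts, times 1000000. Knockout replicate 2 stood apart from its group. Across the 11645 genes tested its Spearman correlation with knockout replicates 1 and 3 was 0.9828 and 0.9846, against 0.9945 between those libraries. With wild type replicates 1 to 3 it was 0.9925, 0.9853 and 0.9861, higher than with either other knockout library, though by little for replicates 2 and 3. The ranking depended on the measure. A chi-square per degree of freedom on the raw counts is larger where libraries differ more. For knockout replicate 2 it was 52.7 and 35.9 against knockout replicates 1 and 3. Against wild type replicates 1 to 3 it was 25.2, 61.3 and 59.1. The table pairs no ID with a symbol beyond the list that defines the set, so Cyp2j4 itself, other matrix genes and the markers of macrophages, fibroblasts or other cells were not analysed here, and neither the genotype labels nor the cell type was checked against expression.

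Each of the 6 genes was higher in each of the 3 knockout libraries than in each of the 3 wild-type libraries. The knockout and wild-type values did not overlap for 6 of 6 genes by CPM, where 5.31% of all genes tested were separated in this direction. With CPM scaled by the trimmed mean of M values (TMM), which corrects for differences in library composition, 6 of 6 were again separated, against 7.54% of all genes. The scaling mattered for the background: of all separated genes, 30.9% were the higher ones in knockout by library totals and 50.3% after TMM. The size of the difference varied widely among the 6, with the ratio of the knockout mean to the wild-type mean 15.4 for Col1a1, 15.2 for Col1a2, 17.9 for Col3a1, 3.14 for Dcn, 2.50 for Sparc and 1.47 for Fn1. In bulk libraries such as these, a different number of cells of a type and a different amount of RNA per cell cannot be told apart.

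**Figure D1:**
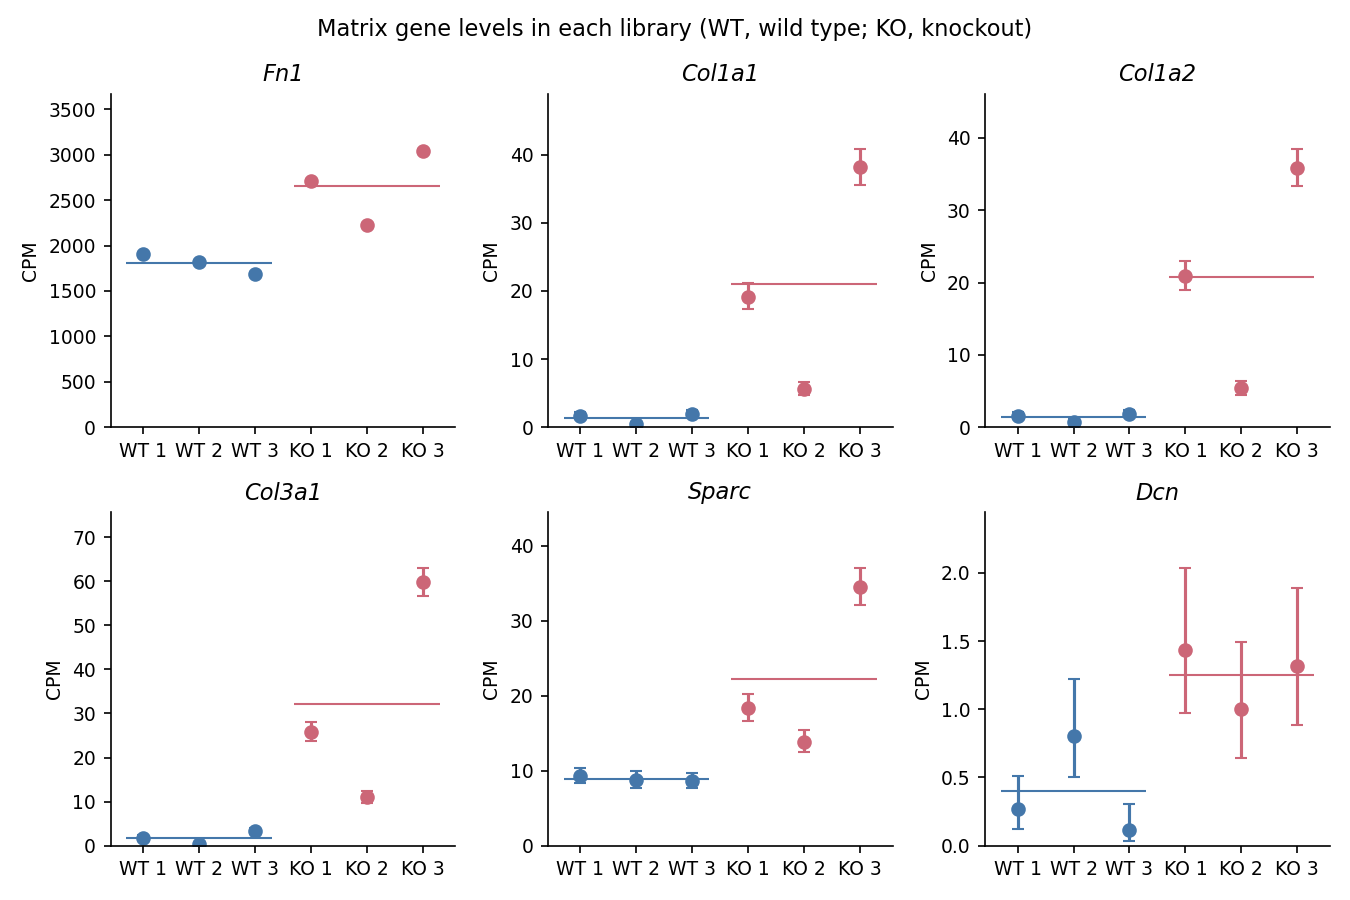
Level of each gene in each library in CPM (linear axes from 0), with wild type (WT) in blue and knockout (KO) in red. Points are single libraries, bars are 95% exact Poisson intervals that cover counting error alone, and lines are means of 3 libraries. All knockout points lie above all wild-type points, and knockout replicate 3 is the highest library for every gene but Dcn.

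None of the 6 differences passed the test over all genes. At an adjusted p under 0.05, edgeR's quasi-likelihood test with Benjamini-Hochberg adjustment over 11645 genes called 0 of the 6, where it called 0.112% of all genes higher in knockout. At an unadjusted p under 0.05 it held 6 of 6 higher, against 4.71% of all genes. DESeq2 called 5 of the 6 higher (all but Dcn), against 1.09% of the genes to which it gave an adjusted p, and limma-voom called 0, against 0.112% of all genes. On simulated counts DESeq2 made more false calls than the other tests, 31 of 182 calls against 9 of 138 for each of edgeR and limma-voom. It also recovered more of the simulated 2-fold changes, 81.8% against 72.7% for edgeR and 74.5% for limma-voom. Those counts were drawn in a single run, with the variability that edgeR fitted to the 11645 genes and with no library made to stand apart. On the real libraries DESeq2 gave an adjusted p to 16319 genes. The simulation therefore cannot show whether its 5 calls among the 6 genes were false. With no filter on low counts the edgeR test called the 3 collagens, against 0.315% of all genes. Without knockout replicate 2, the edgeR test called the same 5 higher, against 1.74% of all genes. That library was the lowest knockout library for each of the 6 genes, so leaving it out raised each fold change. With that library down-weighted by limma-voom's sample quality weights, or left out of the DESeq2 fit, the same 5 were called, against 1.04% and 2.12% of the genes with an adjusted p. Leaving out any one of the other 5 libraries gave 0 calls among the 6, in fits that called few genes of any kind: dropping knockout replicate 1 left 0.0424% of all genes called higher, dropping knockout replicate 3 left 0.00847%, dropping wild type replicate 1 left 0.0256%, and dropping wild type replicate 2 or 3 left 0%.

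**Figure D2:**
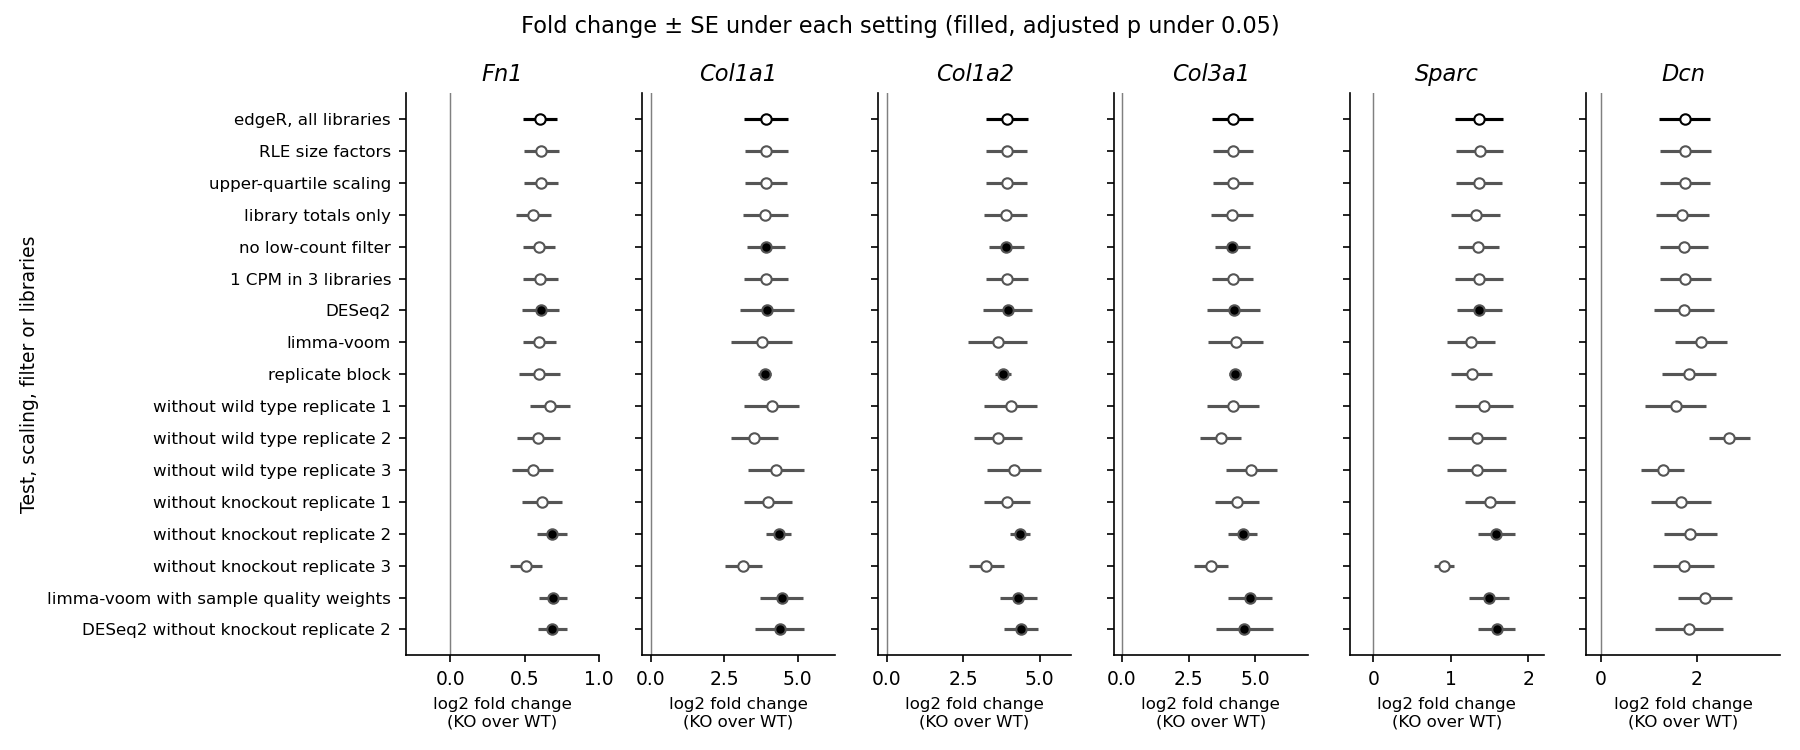
Log2 fold change of each gene (knockout over wild type, horizontal axis, bars ± SE) under each test, scaling, filter and set of libraries. Filled points have an adjusted p under 0.05. All points lie to the right of 0, and 5 genes are filled with DESeq2 or without knockout replicate 2, while Dcn is filled under none of the settings shown.

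The median fitted log2 fold change of the 6 genes was 2.84, and that of all 11645 genes was -0.01. A log2 fold change above 1, a doubling, was fitted for 5 of the 6 genes and for 1.38% of all genes. All 6 passed the filter on low counts. Col3a1 reached its limit of 0.391 CPM in 2 of 3 wild-type libraries and Dcn in 1 of 3, so that both passed it through the knockout libraries, where they are higher.

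**Figure D3:**
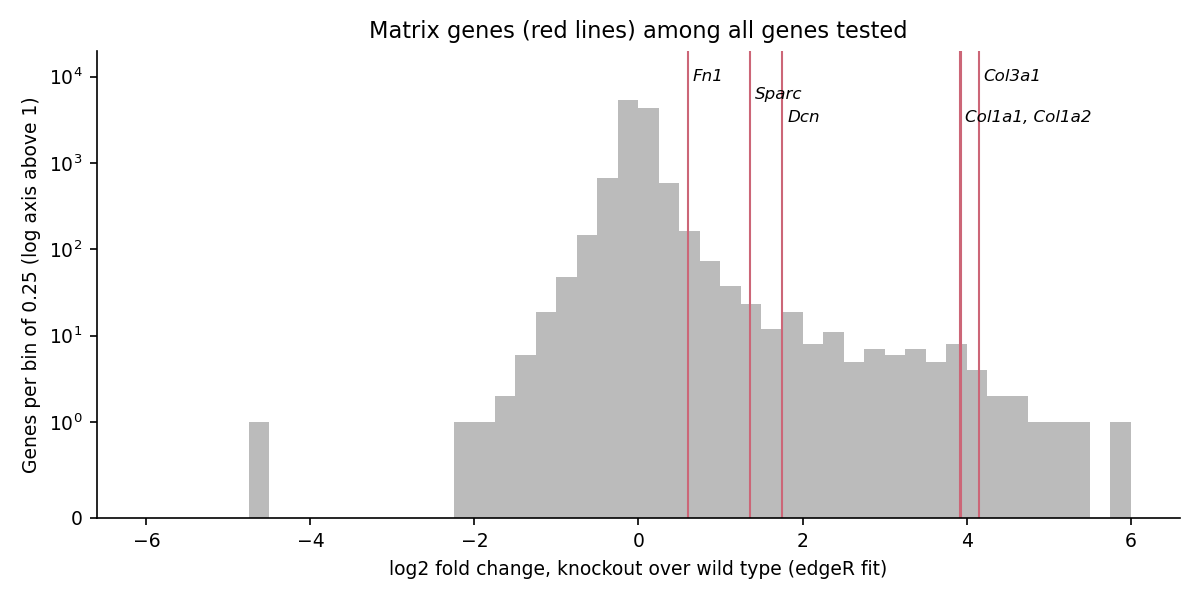
Histogram of log2 fold changes (knockout over wild type, edgeR fit) of the 11645 genes tested, in bins of 0.25, with genes per bin on an axis that is logarithmic above 1; the last bin also holds the highest value, 6.50. Red lines mark the 6 matrix genes, which all lie to the right of 0, with the 3 collagens near 4.

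Col1a1 (ENSRNOG00000003897) and Col1a2 (ENSRNOG00000011292) encode the chains of type I collagen, the main collagen of bone, tendon and scar. Col1a1 stood at 1.68, 0.440 and 1.98 CPM in wild type replicates 1, 2 and 3, from 56, 12 and 67 counts. In knockout replicates 1, 2 and 3 it stood at 19.2, 5.60 and 38.2 CPM, from 414, 134 and 841 counts. The wild-type libraries were all below 2 CPM but spread over 4.49-fold. The knockout libraries were also unlike one another, with replicate 3 at 6.81 times replicate 2. The 9 ratios of a knockout to a wild-type library ran from 2.84 to 86.7. The fitted log2 fold change was 3.93 ± 0.74 (SE, n = 3 per genotype; edgeR quasi-likelihood adjusted p = 0.144), and 14 of the genes tested had a larger one. Without knockout replicate 2 it was 4.35 with an edgeR adjusted p of 0.00296. With any other single library left out, the edgeR adjusted p was 0.219 to 0.558.

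Col1a2 followed Col1a1 in level and in order. It stood at 1.56, 0.734 and 1.80 CPM in wild type replicates 1 to 3, and at 20.9, 5.35 and 35.9 CPM in knockout replicates 1 to 3. Knockout replicate 2 was again the lowest knockout library, at 2.97 times the highest wild-type library. The 95% counting intervals of these libraries, 4.46 to 6.36 CPM in knockout replicate 2 and 1.38 to 2.31 CPM in wild type replicate 3, did not meet. The fitted log2 fold change was 3.92 ± 0.68 (SE, n = 3 per genotype, edgeR quasi-likelihood adjusted p = 0.121). Without knockout replicate 2 it was 4.35 with an edgeR adjusted p of 0.00138. With any other single library left out, the edgeR adjusted p was 0.219 to 0.498.

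The type I collagen chains kept nearly the same proportion to each other while their level moved. The ratio of Col1a1 to Col1a2 counts, which does not depend on depth or scaling, was 1.08, 0.600 and 1.10 in wild type replicates 1 to 3. In knockout replicates 1 to 3 the ratio was 0.918, 1.05 and 1.06. The low value belongs to wild type replicate 2, where both genes together had 32 counts. Col1a1 made up 37.5% of them, with an exact (Clopper-Pearson) 95% interval of 21.1% to 56.3% that includes the shares in the other 5 libraries, 47.9% to 52.3%. Reads were counted without molecular identifiers, so this and all other intervals given cover counting error alone.

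Col3a1 (ENSRNOG00000003357) encodes type III collagen, which forms fibrils together with type I collagen in skin, vessels and early scar. It stood at 1.80, 0.367 and 3.24 CPM in wild type replicates 1 to 3, from 60, 10 and 110 counts. In knockout replicates 1 to 3 it stood at 25.9, 11.0 and 59.8 CPM, from 559, 264 and 1317 counts. Here too wild type replicate 2 was the lowest library of all and knockout replicate 3 the highest, and knockout replicate 2 lay at 3.40 times the highest wild-type library. The fitted log2 fold change was 4.15 ± 0.77 (SE, n = 3 per genotype; edgeR quasi-likelihood adjusted p = 0.137), a 17.8-fold difference that 8 of the genes tested exceeded. Without knockout replicate 2 it was 4.53 with an edgeR adjusted p of 0.00605. With any other single library left out, the edgeR adjusted p was 0.219 to 0.491.

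The 3 collagens shared 1 order of the 6 libraries: knockout replicates 3, 1 and 2, then wild type replicates 3, 1 and 2. Summed, they stood at 5.05, 1.54 and 7.02 CPM in wild type replicates 1 to 3 and at 66.0, 22.0 and 134 CPM in knockout replicates 1 to 3. Relative to its wild-type mean, each collagen was 14.0 to 15.3 times higher in knockout replicate 1, 3.92 to 6.11 times in replicate 2 and 26.3 to 33.1 times in replicate 3. Within each genotype their libraries differed more than those of most genes at that genotype's level. The SD of log2 CPM among knockout libraries was 1.36 for Col1a1, 1.36 for Col1a2 and 1.18 for Col3a1. Genes within a factor of 2 of their mean CPM in knockout had median SDs of 0.153 to 0.161. Among wild-type libraries the SD was 1.12, 0.68 and 1.52, against medians of 0.202 to 0.224 for genes within a factor of 2 of their mean CPM in wild type. Fold changes moved with the libraries used. On the log2 scale and without knockout replicate 3 they were 3.16 for Col1a1, 3.25 for Col1a2 and 3.34 for Col3a1, and without wild type replicate 3 they were 4.27, 4.16 and 4.85.

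Likeness of pattern was measured as the root mean square difference, over the 6 libraries, between the log2 CPM values of a pair of genes after each was centred on its own mean. Of the 11644 other genes, the one closest to Col3a1 was Col1a1, at 0.40 log2 units, and Col1a2 was at rank 3, at 0.63. Sparc was at rank 93, Dcn at rank 190 and Fn1 at rank 254. This is a description over 6 libraries, and the measure rewards genes with a similarly large range.

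**Figure D4:**
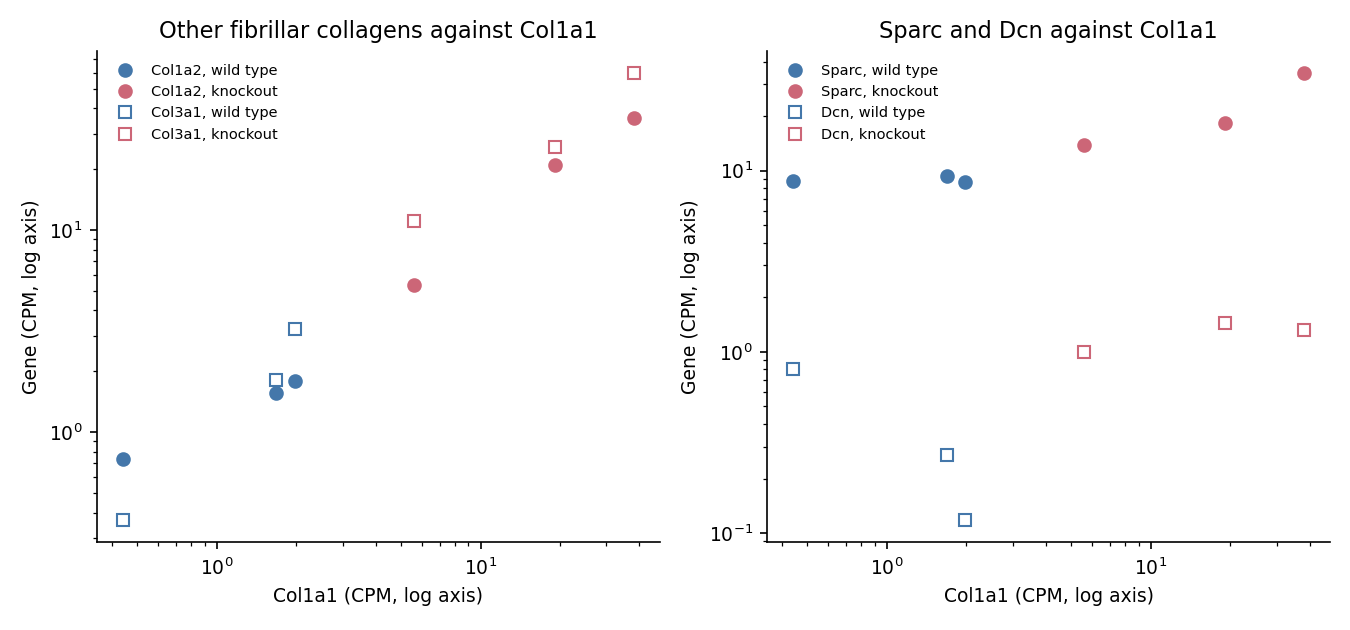
Col1a2 and Col3a1 (left) and Sparc and Dcn (right) against Col1a1, each point 1 library, in CPM on logarithmic axes, with wild type in blue and knockout in red. Col1a2 and Col3a1 climb with Col1a1 through both genotypes, whereas Sparc stays between 8.61 and 9.32 CPM over the wild-type libraries and Dcn is highest of the wild-type libraries where Col1a1 is lowest.

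The RefSeq promoter table used here holds 2 of the 6 genes, Col1a2 and Sparc. Stretches upstream of their annotated starts (build GRCr8) are shown for these genes alone for that reason. The Col1a2 stretch is chr4:33518307-33518416 on the + strand, and the Sparc stretch is chr10:40038897-40039006 on the - strand. Each has 110 bases and reads 5′ to 3′ along its gene. The Col1a2 stretch runs from 250 to 141 bases before the annotated start and the Sparc stretch from 190 to 81, so their positions differ. The TATAAA match of Col1a2 thus lies more than 141 bases before that start. Capitals mark matches on either strand to 4 motifs: the TATA box core TATAAA, the CCAAT box, the GC box core GGGCGG and the purine-rich motif GGAGG.
Col1a2: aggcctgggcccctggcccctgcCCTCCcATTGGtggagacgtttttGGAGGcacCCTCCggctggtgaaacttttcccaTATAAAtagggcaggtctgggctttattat
Sparc: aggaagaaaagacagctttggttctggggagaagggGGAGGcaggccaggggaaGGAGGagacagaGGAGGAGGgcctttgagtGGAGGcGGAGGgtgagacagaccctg
In the 250 bases before its start Col1a2 had 1 match to TATAAA and 1 to CCAAT, read here on the reverse strand as ATTGG, and Sparc had 0 of each. Of all 33469 promoters of that length, 12.9% held the first of these and 34% the CCAAT box on either strand. GGAGG, counted with overlaps, had 6 matches in Col1a2 and 7 in Sparc, and 64.7% of all promoters held it. GGGCGG, held by 30.5%, had 0 matches in either gene. These matches describe letters and were not tested for binding or for a link to the fold changes.

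Fn1 (ENSRNOG00000014288) encodes fibronectin, a large glycoprotein that binds integrins and collagen and that macrophages secrete. It stood at 1905, 1818 and 1691 CPM in wild type replicates 1 to 3. In knockout replicates 1 to 3 it stood at 2709, 2225 and 3040 CPM. Fn1 thus took 0.169% to 0.191% of all gene counts in wild type and 0.223% to 0.304% in knockout, and its wild-type libraries lay within 1.13-fold of one another. The lowest of the 9 knockout to wild-type ratios was 1.17, between knockout replicate 2 and wild type replicate 1, and the highest was 1.80. The fitted log2 fold change was 0.60 ± 0.12 (SE, n = 3 per genotype; edgeR quasi-likelihood adjusted p = 0.152), a 1.52-fold difference, and 2.63% of genes tested had a larger one. Without knockout replicate 2 it was 0.68 with an edgeR adjusted p of 0.0141. With any other single library left out, the edgeR adjusted p was 0.219 to 0.562.

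Fn1 shared the collagens' order among the knockout libraries but little of their amplitude. Knockout replicate 3 exceeded replicate 2 by 1.37-fold for Fn1, against 5.42-fold to 6.81-fold for the collagens. In wild type the order was another, with Fn1 lowest in replicate 3, where the collagens were highest. With respect to Fn1 in the same library, Col1a1 was 0.000242 to 0.00117 counts per Fn1 count in wild type and 0.00252 to 0.0126 in knockout. These ranges could not overlap, since the lowest knockout to wild-type ratio of Col1a1, 2.84, exceeded the highest of Fn1, 1.80. The gene whose pattern was closest to that of Fn1 was ENSRNOG00000030830, at 0.06 log2 units over 6 libraries, which the table does not pair with a symbol. The collagens were among the genes least like Fn1 by this measure, with Col1a1 at rank 11640, Col1a2 at rank 11633 and Col3a1 at rank 11643 of 11644. Dcn was at rank 11508 and Sparc at rank 8708. The measure counts amplitude, so genes with a much larger range than Fn1 rank low whatever their order of libraries. The closest gene stood at 5.45 to 6.25 CPM in wild type and at 7.69 to 9.21 CPM in knockout.

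Sparc (ENSRNOG00000012840) encodes osteonectin, a secreted glycoprotein that binds collagen and takes part in its assembly into fibrils. It stood at 9.32, 8.77 and 8.61 CPM in wild type replicates 1 to 3. In knockout replicates 1 to 3 it stood at 18.3, 13.9 and 34.5 CPM. The wild-type libraries lay within 1.08-fold of one another, in contrast to the collagens, whereas the knockout libraries spread over 2.49-fold in the collagens' order. The fitted log2 fold change was 1.36 ± 0.31 (SE, n = 3 per genotype; edgeR quasi-likelihood adjusted p = 0.210), and 1.59 with an adjusted p of 0.0162 without knockout replicate 2. Without knockout replicate 3, the highest library, it was 0.91 with an adjusted p of 0.187. The edgeR adjusted p was 0.219 to 0.658 with any other single library left out.

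The spread of Sparc differed between the genotypes. The SD of its log2 CPM was 0.10 among wild-type libraries, where genes within a factor of 2 of its mean CPM there had a median of 0.114, and 0.65 among knockout libraries, where that median was 0.158. Its ratio to Fn1 was 0.00482 to 0.00509 counts per Fn1 count in wild type, and 0.00677, 0.00624 and 0.0114 in knockout replicates 1 to 3. Its ratio to Col1a1 went the other way, from 4.36 to 19.9 in wild type to 0.905 to 2.48 in knockout, since Col1a1 differed by the larger factor.

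Dcn (ENSRNOG00000004554) encodes decorin, a small leucine-rich proteoglycan that coats collagen fibrils and binds the growth factor TGF-beta. It had 9, 22 and 4 counts in wild type replicates 1 to 3, or 0.271, 0.807 and 0.118 CPM. In knockout replicates 1 to 3 it had 31, 24 and 29 counts, or 1.44, 1.00 and 1.32 CPM. The knockout libraries were close to one another, within 1.43-fold, and the wild-type libraries spread over 6.85-fold with replicate 2 the highest. The groups were separated by a narrow margin: the 95% counting interval of knockout replicate 2, 0.643 to 1.49 CPM, overlapped that of wild type replicate 2, 0.506 to 1.22 CPM. In the edgeR fit its log2 fold change was 1.75 ± 0.53 (SE, n = 3 per genotype; edgeR quasi-likelihood adjusted p = 0.413). Without wild type replicate 2 it was 2.68 with an adjusted p of 0.285, and without wild type replicate 3 it was 1.29 with an adjusted p of 0.797. The edgeR adjusted p was 0.150 to 0.865 with any other single library left out.

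Dcn departed from the collagens in both genotypes. Of the 6 genes, 5 had knockout replicates in the order 3, 1, 2 from the highest, an order that 16.8% of all genes tested showed, and Dcn had replicate 1 highest. In wild type replicate 2, where Col1a1, Col1a2 and Col3a1 were lowest, Dcn was highest, at 1.83 counts per Col1a1 count against 0.0597 and 0.161 in the other wild-type libraries. In knockout these ratios were 0.0345 to 0.179. With 4 to 31 counts per library, differences of Dcn among the knockout libraries were not detectable at this depth.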

How the data were processed

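Libraries were made from poly-A-selected RNA with the TruSeq RNA kit, per the labels' protocols. The authors deposited 1 table of raw counts per Ensembl gene ID. The reads had been placed on rn4 by TopHat2 and assigned to genes by HTSeq, per the submitters' processing notes. Versions, annotation release and strand setting were not given in the sources used here, so reads of a gene and of an antisense or overlapping partner may not be told apart. The 5 HTSeq summary lines were left out (ambiguous reads were 0.799% to 0.943% per library, reads outside genes 9.50% to 10.7%, reads aligned to several places 7.79% to 8.30%).

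The main test was that of edgeR 4.0.16 under R 4.3.3 (filterByExpr, TMM, quasi-likelihood F test, genotype as the term), with the SE derived from the fold change and F. A gene was called where its p, adjusted by Benjamini-Hochberg over the genes tested, was under 0.05. Log2 CPM used TMM and a prior count of 2. DESeq2 1.42.0, limma-voom (limma 3.58.1), other scalings, filters and thresholds, each library left out and the replicate number as a block were alternatives. Sample quality weights and DESeq2 without knockout replicate 2 were added after seeing the data.

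The rule for named genes was to give the 6 genes whatever their values, and for Fn1 and the most abundant collagen the gene of the closest pattern. Gene and alternative choices were made with earlier results of these data known. Symbols follow the list that defines the set; 0 of 29516 IDs matched the RefSeq gene table, so the wider matrix and marker lists, and comparisons of level per gene length, were left out. Between any pair of libraries the counts differed beyond sampling noise (lowest chi-square statistic 10.3 per degree of freedom). The tests were checked on simulated data, where DESeq2 made a larger share of false calls than edgeR or limma-voom. Those data held no library made to stand apart, so the shares need not hold for the real libraries.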

Additional observations from a re-analysis of the deposited data

How the results depend on the processing

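All 6 genes were higher in knockout under each of the 16 alternatives fitted for each gene. Every knockout library already lay above every wild-type library at these genes, so the alternatives could hardly reverse this direction. Scaling (size factors, upper quartile, library totals), a filter of 1 CPM in 3 libraries, limma-voom and thresholds of 0.1 or 0.01 left the count of called genes among the 6 at 0. It became 3 (the collagens) with no filter on low counts, where 0.315% of all genes were called higher. It became 5 (all but Dcn) with DESeq2, without knockout replicate 2, with sample quality weights and with DESeq2 without knockout replicate 2. In these 4 settings 1.09%, 1.74%, 1.04% and 2.12% of all genes with an adjusted p were called higher. Log2 fold changes with no filter were 3.92 for Col1a1, 3.91 for Col1a2 and 4.14 for Col3a1. With DESeq2 they were 0.61 for Fn1, 3.96 for Col1a1, 3.95 for Col1a2, 4.19 for Col3a1 and 1.37 for Sparc, with quality weights 0.69, 4.46, 4.29, 4.82 and 1.49, and with DESeq2 without knockout replicate 2 0.68, 4.40, 4.39, 4.58 and 1.59. The quality weight of knockout replicate 2 was 0.192, and those of the others were 1.12 to 1.71. Leaving out 1 library gave 0.51 to 0.68 for Fn1, 3.16 to 4.35 for Col1a1, 3.25 to 4.35 for Col1a2, 3.34 to 4.85 for Col3a1, 0.91 to 1.59 for Sparc and 1.29 to 2.68 for Dcn, and 0 to 5 calls among the 6.

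Over all genes the 14 calls (13 higher and 1 lower in knockout, of 11645) became 59 with no filter (54 and 5, of 17135), 196 with DESeq2 (178 and 18, of 16319), 139 with quality weights (121 and 18, of 11645) and 387 with DESeq2 without knockout replicate 2 (272 and 115, of 12836). They became 41 at an adjusted p under 0.1 (38 and 3) and 1 under 0.01 (0 and 1). With 1 library left out they became 250 without knockout replicate 2 (207 and 43, of 11867) and 1 to 6 without any other. The cause was not tested. Over all genes tested, the 4 scalings gave median log2 fold changes of -0.06 to -0.01.

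With the replicate block, 3 of the 6 genes were called (Col1a1 at 3.88, Col1a2 at 3.79 and Col3a1 at 4.23, with edgeR adjusted p of 0.0106, 0.0220 and 0.0106) and 27 of all 11645 genes (26 higher and 1 lower). Residuals of same-numbered libraries correlated at -0.44, -0.14 and 0.15, and not every library correlated best with its own number, so the numbers were not taken as pairing the libraries.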
